A study of Mus musculus with 27 samples.

Results

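Intestinal adenomas of mice carrying an inducible Fosl1 transgene were compared with intestinal adenomas of mice carrying an activating Braf allele. The comparison used the 3 libraries labelled as transgene adenomas (Fosl1Tg) and the 3 libraries of Braf mutant adenomas (Braf) that share a table of read counts scaled to library size, given in CPM, 6 of the 27 samples of the series, and covered all 17440 genes of that table. Braf adenomas held in the series' other table were not used, because levels were compared only within 1 table. The series asks whether Fosl1, which encodes the transcription factor FRA-1, acts downstream of mutant BRAF in intestinal tumours.

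Fosl1Tg mice had the genotype Tet-o-Fosl1;Vil-CreERT2/+, received tamoxifen and then ate chow containing doxycycline (2000 mg/kg), which began when 1 week had passed. Braf mice had the genotype BrafV637E/+;Vil-CreERT2/+ and received the same tamoxifen without doxycycline. The 3 control libraries came from normal intestinal epithelium of Braf genotype mice given sunflower oil instead of tamoxifen. Tamoxifen was 5 mg by gavage on 2 consecutive days at 6 weeks of age, and every mouse carried Vil-CreERT2, a tamoxifen-activated Cre driven by the villin promoter, which is active in intestinal epithelium. The transgene is FLAG-tagged in the series' design text, and the labels name no tetracycline transactivator. Doxycycline went to Fosl1Tg mice alone, so the transgene and the antibiotic cannot be told apart in this comparison. The labels number the mice separately and do not give tumour site, sex, age at collection or which of the named library kits made which library.

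FRA-1 is a member of the AP-1 family, which binds DNA as dimers with JUN proteins, and it has no transactivation domain of its own. RAF kinases activate MEK and ERK, and ERK both induces Fosl1 transcription and stabilises its protein. In the intestine the Wnt pathway maintains crypt stem cells, and injury or mutant BRAF is known to bring out a programme with fetal and gastric genes.

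The 6 adenoma libraries held 12418499 to 15484525 reads, and the 3 control libraries 12846908 to 13984519. Epcam, an epithelial surface marker, stood between 2342 and 2797 CPM in all 6 adenoma libraries. The other epithelial markers checked, Krt8, Krt18, Krt19, Cdh1 and Vil1, had every Fosl1Tg library below every Braf library, as did 10.5% of all tested genes. Vil1, villin, had 588, 519 and 416 CPM in Fosl1Tg adenomas, against 759, 1122.5 and 590 CPM in Braf adenomas. Mitochondrially encoded genes took 2.83 to 4.67% of reads in Fosl1Tg adenomas, 2.21 to 2.38% in Braf adenomas and 4.21 to 4.68% in controls. Correlations of log2 CPM were 0.971 to 0.976 among Fosl1Tg libraries, 0.965 to 0.970 among Braf libraries and 0.902 to 0.955 between them, with Braf 1 nearest to the Fosl1Tg libraries and Braf 2 farthest. Y-linked genes summed to 0, 131 and 150.4 CPM in Fosl1Tg libraries and to 0 in all 3 Braf libraries, so that 2 Fosl1Tg libraries carried Y-linked reads and no Braf library did. Xist, the other sex-linked gene checked, had 809.9, 0 and 0.135 CPM in Fosl1Tg libraries. In Braf libraries it had 238, 844 and 898 CPM, lowest in Braf 1. Sex therefore differs between the groups in part, and a fit with a term for Y-linked reads, added after these levels were seen, is given beside the counts below.

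The level read on Fosl1 itself was not higher in the transgene adenomas. Fosl1 (ENSMUSG00000024912, chromosome 19, 5447547 to 5455946, plus strand, GRCm38) had 3.62, 3.70 and 3.30 CPM in Fosl1Tg adenomas, against 4.15, 4.27 and 5.31 CPM in Braf adenomas, and no read in any control library. All 3 Fosl1Tg values lay below all 3 Braf values, which was so for 10.5% of all tested genes, while 27.9% had all 3 Fosl1Tg values above. The difference was -0.29 ± 0.20 on the log2(CPM + 1) scale (adjusted p = 0.342, limma with Benjamini-Hochberg adjustment), and an exact two-sided permutation test gave p = 0.1, the smallest that 3 against 3 libraries allow. Whether reads of the FLAG-tagged transgene were counted on Fosl1 at all is not given in the sources used here, and transgene and endogenous reads cannot be told apart in these values. Braf (ENSMUSG00000002413, chromosome 6, 39603237 to 39725463, minus strand), the gene that carries the activating allele in the other group, had 13.4, 20.6 and 24.2 CPM in Fosl1Tg adenomas, against 16.7, 19.5 and 18.0 CPM in Braf adenomas. The groups overlapped for Braf (adjusted p = 0.878), and a CPM value does not show which allele was read.

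Beyond Fosl1 the adenomas differed widely. Of 15173 genes tested, 2918 were called at an adjusted p below 0.05 (limma on log2(CPM + 1) with all 9 libraries in 1 fit), which is 19.2%. An unadjusted p below 0.05 by limma was found for 5168 of the 15173, the background for list counts at that level below. In Fosl1Tg adenomas 2202 genes were higher (14.5% of those tested) and 716 were lower (4.72%), with at least a 2-fold difference for 1656 and 343 of them. The median tested gene stood 0.17 log2 units higher in Fosl1Tg adenomas. Every list below is read beside that shift and beside the shares of 14.5% higher and 4.72% lower. After TMM rescaling, which moves that median to 0.03, 1741 genes were higher (11.5%) and 1174 lower (7.74%), so the share of calls that were higher was 59.7% in place of 75.5%. That share was 55.7% after median-ratio rescaling, 53.9% by edgeR and 49.4% by DESeq2, which called 1731 genes higher and 1776 lower.

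**Figure D1:**
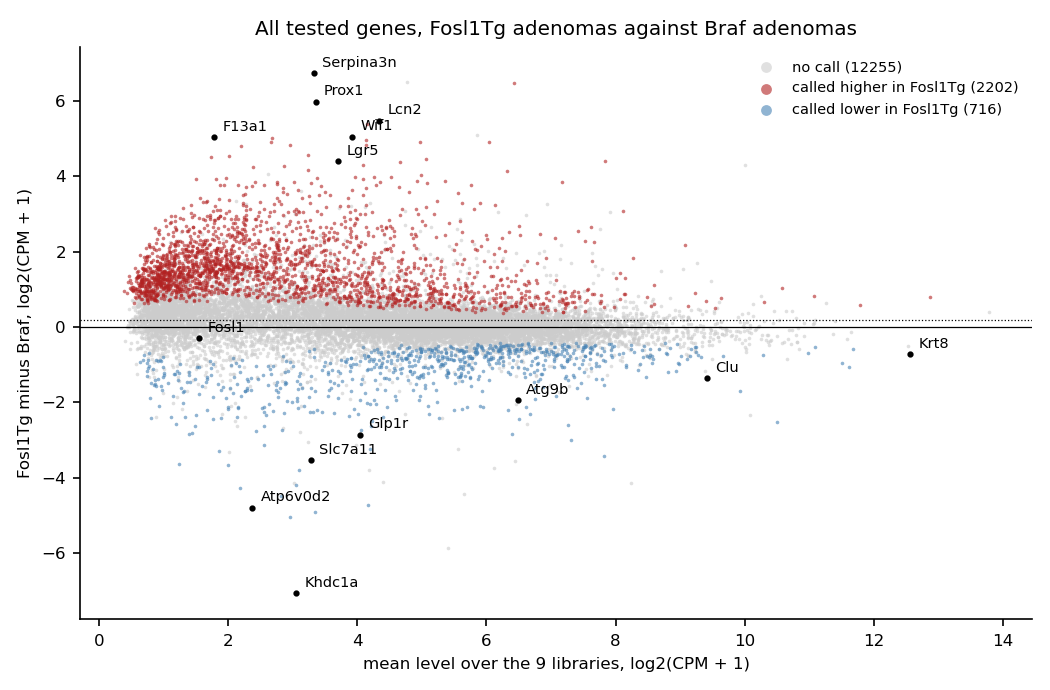
Each point is 1 of the 15173 tested genes, with its mean log2(CPM + 1) over the 9 libraries on the x axis and the Fosl1Tg minus Braf difference in log2(CPM + 1) on the y axis; red points are the 2202 genes called higher in Fosl1Tg, blue points the 716 called lower and grey points the rest. The dotted line is the median of all tested genes at 0.17, and Fosl1 lies just below 0 among the uncalled genes.

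Against the control level, 1394 of the 2202 genes higher in Fosl1Tg had a control mean below both adenoma groups, 518 a control mean between them and 290 a control mean above both. For the 716 genes lower in Fosl1Tg the numbers were 366, 200 and 150. The Braf libraries spread unevenly in the genes called higher: Braf 1 was the highest Braf library for 64.5% of them and Braf 2 the lowest for 72.1%. Leaving out 1 library at a time, 1122 genes were higher and 308 lower in every fit. The count of higher genes fell to 1291 without Fosl1Tg 3 and 1443 without Braf 2, and that of lower genes to 462 without Fosl1Tg 1 and 414 without Fosl1Tg 3. With the term for Y-linked reads 951 genes were higher and 337 lower.

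Among the 15 named genes with the largest positive differences, Serpina3n came first, and several others encode secreted proteins. Serpina3n, a secreted inhibitor of serine proteases, had 328, 252 and 431 CPM in Fosl1Tg adenomas, against 8.78, 0.644 and 0.811 CPM in Braf adenomas, and no read in any control. As the rule for named genes requires, the Fosl1Tg libraries did not overlap the Braf libraries, of which Braf 1 was the highest. The log2 difference was 6.74 ± 0.60, adjusted p = 0.000412. Lcn2, lipocalin 2, which binds bacterial siderophores, had 890.5, 416 and 416 CPM in Fosl1Tg adenomas, against 63.9, 5.96 and 2.87 CPM in Braf adenomas, again with Braf 1 the highest of its group (5.48 ± 0.94, adjusted p = 0.00714). Lrg1, a secreted leucine-rich glycoprotein, had 704, 354 and 315 CPM in Fosl1Tg adenomas, against 23.5, 6.68 and 4.64 CPM in Braf adenomas (5.39 ± 0.52, adjusted p = 0.000566). Trf, the iron carrier transferrin, had 843, 353 and 282 CPM in Fosl1Tg adenomas, against 72.5, 2.50 and 11.3 CPM in Braf adenomas, and its call (adjusted p = 0.0184) was lost without Fosl1Tg 2 and with the term for Y-linked reads (adjusted p = 0.082).

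Genes of the Wnt pathway were also among the 15. Prox1, a homeobox transcription factor and a known Wnt target in colorectal tumours, had 154, 201 and 288 CPM in Fosl1Tg adenomas, against 9.06, 0.242 and 1.84 CPM in Braf adenomas and at most 0.606 CPM in controls. Its log2 difference was 5.99 ± 0.63, adjusted p = 0.000864. Wif1, a secreted inhibitor that binds Wnt ligands, had 249, 426 and 340.3 CPM in Fosl1Tg adenomas, against 36.5, 3.22 and 5.23 CPM in Braf adenomas (5.06 ± 0.71, adjusted p = 0.00287). In both genes the lowest Fosl1Tg library lay far above Braf 1.

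Other named genes higher in Fosl1Tg were absent or nearly so from Braf adenomas. F13a1, the catalytic subunit of coagulation factor XIII, had 39.4, 16.9 and 68.3 CPM in Fosl1Tg adenomas, against 0.211, 0 and 0.147 CPM in Braf adenomas. Gsdma, a pore-forming gasdermin, had 14.8, 30.3 and 39.6 CPM in Fosl1Tg adenomas, against 0.281, 0.242 and 0 CPM in Braf adenomas. Apol10a, of the apolipoprotein L family, had 30.8, 49.5 and 31.7 CPM in Fosl1Tg adenomas, against 0.141, 0.322 and 0.147 CPM in Braf adenomas, while controls were above both adenoma groups at 252, 57.7 and 119.7 CPM. All 3 genes separated the groups completely, as the rule for named genes requires. Adjusted p was 0.00021 for F13a1, 0.00021 for Gsdma and 0.000392 for Apol10a.

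The rest of the 15 had log2 differences between 4.57 and 5.01, leaving those above aside. Slc38a4, a sodium-coupled amino acid transporter, had 449, 212 and 468 CPM in Fosl1Tg adenomas, against 27.8, 3.95 and 12.5 CPM in Braf adenomas and no more than 0.701 CPM in controls. Ifitm3, an interferon-induced membrane protein, had 462, 603 and 503 CPM in Fosl1Tg adenomas, against 93.8, 3.46 and 11.4 CPM in Braf adenomas, with an adjusted p of 0.0138, and of 0.0682 with the term for Y-linked reads. Pla2g4c, a cytosolic phospholipase A2, was uneven within its group at 12.0, 132 and 90.7 CPM in Fosl1Tg adenomas, against 0.914, 0.644 and 0.516 CPM in Braf adenomas. The same unevenness marked Gsdmc2 at 2.84, 99.5 and 97.3 CPM in Fosl1Tg adenomas, against 0, 0.644 and 0 CPM in Braf adenomas and Pnliprp1 at 18.4, 169.5 and 313 CPM in Fosl1Tg adenomas, against 14.2, 0.725 and 1.99 CPM in Braf adenomas. In these 3 genes Fosl1Tg 1 was well below the other Fosl1Tg libraries, and it was also the Fosl1Tg library without Y-linked reads. The calls of Gsdmc2 and Pnliprp1 were both lost without Fosl1Tg 2, Fosl1Tg 3, Braf 2 or Braf 3, and that of Gsdmc2 also without Braf 1. With the term for Y-linked reads their adjusted p were 0.137 and 0.139.

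Among the 15 named genes with the largest negative differences, Khdc1a stood apart from the rest. Khdc1a, which encodes a KH domain protein, had 0.517, 1.33 and 1.28 CPM in Fosl1Tg adenomas, against 340.4, 195 and 287 CPM in Braf adenomas, and at most 0.143 CPM in controls. Every Braf library lay far above every Fosl1Tg library, and the log2 difference was -7.06 ± 0.27, adjusted p = 8.82e-07. Slc7a11, the cystine and glutamate antiporter, had 5.10, 13.6 and 5.45 CPM in Fosl1Tg adenomas, against 87.1, 80.4 and 125 CPM in Braf adenomas, and at most 0.234 CPM in controls (-3.54 ± 0.33, adjusted p = 0.000322). Atp6v0d2, a subunit of the proton-pumping vacuolar ATPase, had 0, 1.63 and 3.16 CPM in Fosl1Tg adenomas, against 20.3, 155 and 69.1 CPM in Braf adenomas. Each of these genes was at or near 0 in controls, high in Braf adenomas and low in Fosl1Tg adenomas.

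The 15 also held 5 genes of differing kinds that were low in Fosl1Tg adenomas. Ivl, involucrin of the cornified envelope, had 0.387, 4.81 and 0.404 CPM in Fosl1Tg adenomas, against 23.4, 17.9 and 49.6 CPM in Braf adenomas and no read in controls. Krt84, a hair keratin, had 0, 3.70 and 0.673 CPM in Fosl1Tg adenomas, against 43.8, 74.7 and 15.6 CPM in Braf adenomas, and Upk1b, a uroplakin of the bladder surface, had 1.49, 3.85 and 1.75 CPM in Fosl1Tg adenomas, against 31.6, 57.7 and 44.8 CPM in Braf adenomas. Muc1, a membrane mucin, had 3.04, 3.48 and 1.68 CPM in Fosl1Tg adenomas, against 21.5, 24.4 and 55.9 CPM in Braf adenomas, and Irx4, a homeobox factor, had 1.03, 2.81 and 8.01 CPM in Fosl1Tg adenomas, against 49.9, 62.8 and 128 CPM in Braf adenomas. None of these 5 genes overlapped between the groups, as the rule for named genes requires, and their adjusted p lay between 0.000227 and 0.00249.

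Glp1r, the receptor of the incretin GLP-1, had 7.30, 9.17 and 12.9 CPM in Fosl1Tg adenomas, against 99.9, 46.5 and 91.5 CPM in Braf adenomas. Tm4sf4, a membrane protein of the L6 family, had 38.5, 43.9 and 33.7 CPM in Fosl1Tg adenomas, against 285, 493 and 222 CPM in Braf adenomas, and controls at 234, 557 and 238 CPM were at the Braf level. Nkx6-3, a homeobox factor of the gastric antrum, had 1.16, 0.296 and 0.269 CPM in Fosl1Tg adenomas, against 91.6, 4.03 and 86.0 CPM in Braf adenomas, so that Braf 2 stood close to the Fosl1Tg libraries. Mucl3, a mucin-like protein, had 2.65, 6.14 and 1.75 CPM in Fosl1Tg adenomas, against 69.6, 47.7 and 394 CPM in Braf adenomas. The call of Nkx6-3 was lost without Braf 1, Braf 3, Fosl1Tg 2 or Fosl1Tg 3, that of Mucl3 without Fosl1Tg 3, and that of Prap1 without Braf 1, Braf 2, Fosl1Tg 2 or Fosl1Tg 3. The term for Y-linked reads gave adjusted p of 0.0967 for Nkx6-3 and 0.185 for Prap1. In every leave-out 12 of the 15 higher and 12 of the 15 lower genes kept their call. Khdc1a, Serpina3n, Gsdmc2 and Apol10a belong to families with close relatives, and how reads shared between copies were counted is not given in the sources used here.

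**Figure D2:**
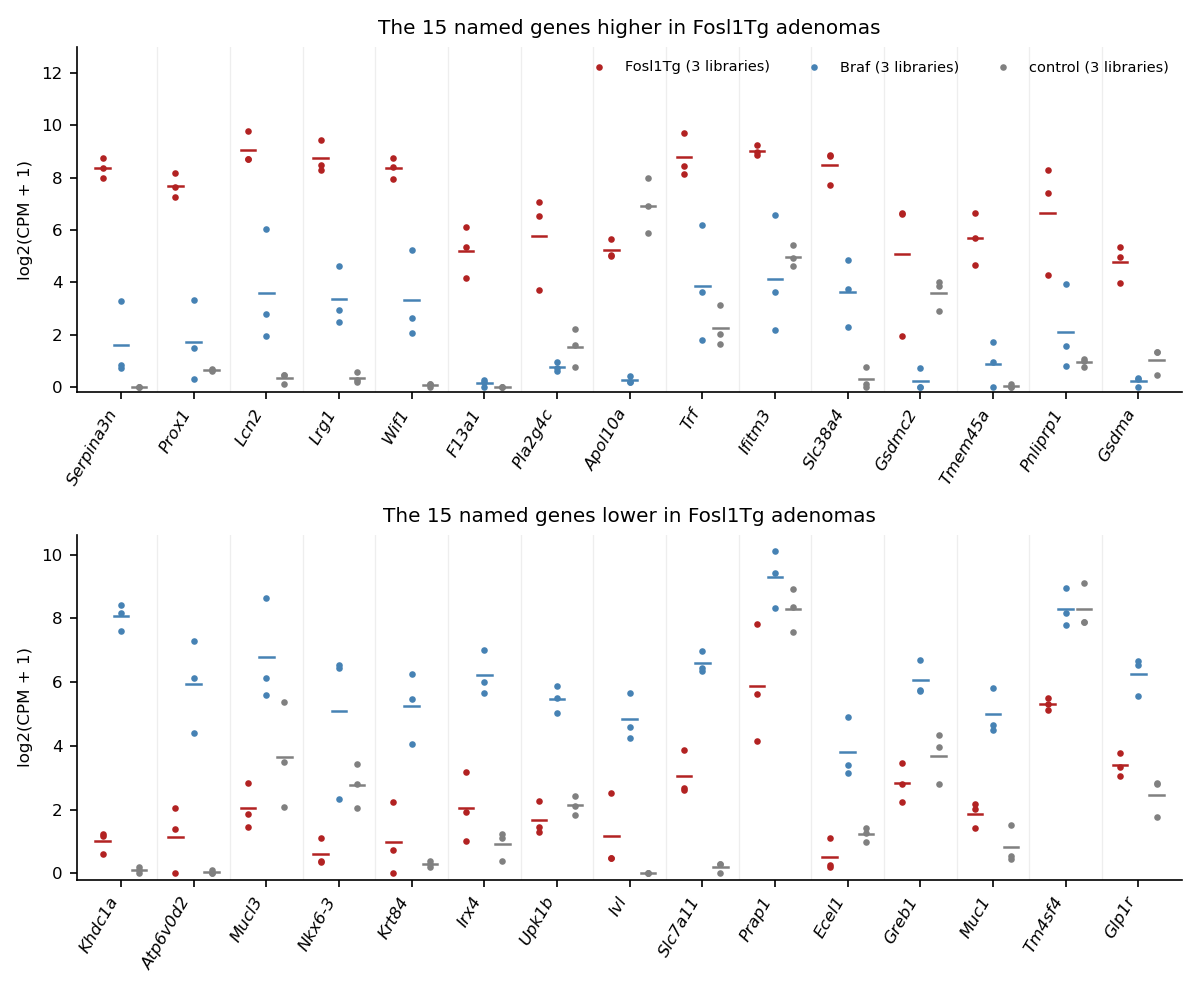
Each point is 1 library's log2(CPM + 1) for the named genes, with Fosl1Tg left of Braf and control on the right of each gene and bars at the group means. In the upper panel every red point lies above every blue point of its gene, by the rule that chose them, and in the lower panel every red point lies below; Khdc1a has Fosl1Tg libraries at 0.517 to 1.33 CPM and Braf libraries at 195 to 340.4 CPM.

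AP-1 dimers are known to bind the heptamer TGACTCA, and 7 promoter stretches that hold it are printed because their genes carry the involucrin result above and the protease, cytokine and fetal-marker results that follow. All 7 were chosen from called genes after their values were seen. Sequences are RefSeq windows of GRCm38.p6 from 250 bases before to 50 after a transcript start, cut to 50 bases on either side of the motif where the window allows, on the gene's strand, with the heptamer or its reverse complement TGAGTCA in capitals. The first 3 genes were lower in Fosl1Tg adenomas and the last 4 were higher.
Il1rn, chr2:24336669-24336775, plus strand: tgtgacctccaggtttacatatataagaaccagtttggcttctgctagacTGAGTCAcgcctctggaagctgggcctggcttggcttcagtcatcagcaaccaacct
Emp1, chr6:135362736-135362842, plus strand: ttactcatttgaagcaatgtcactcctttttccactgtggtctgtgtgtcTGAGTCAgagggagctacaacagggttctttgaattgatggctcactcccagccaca
Ivl, chr3:92573795-92573901, minus strand: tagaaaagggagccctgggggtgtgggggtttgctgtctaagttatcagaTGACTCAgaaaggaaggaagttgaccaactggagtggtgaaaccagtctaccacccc
Mmp12, chr9:7347280-7347386, plus strand: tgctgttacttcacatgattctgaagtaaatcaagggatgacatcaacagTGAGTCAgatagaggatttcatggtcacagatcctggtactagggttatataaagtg
Mmp13, chr9:7272429-7272535, plus strand: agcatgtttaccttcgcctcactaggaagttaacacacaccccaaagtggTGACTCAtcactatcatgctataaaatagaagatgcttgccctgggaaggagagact
Il11, chr7:4778183-4778289, minus strand: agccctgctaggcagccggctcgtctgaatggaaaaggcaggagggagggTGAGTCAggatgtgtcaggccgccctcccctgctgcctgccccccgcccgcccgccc
Il6, chr5:30012864-30012921, plus strand: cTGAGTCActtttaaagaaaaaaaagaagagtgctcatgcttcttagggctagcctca
The motif lies 35 bases before the start of Mmp13, 44 before that of Mmp12 and 249 before that of Il6. It was in 5.20% of all 32851 windows, and in 5.12% of the 11266 tested genes with a window. Of the genes with a window it was in 5.50% of the 1635 called higher and in 10.2% of the 527 called lower. By list it was in 6 of 17 plasminogen system and matrix protease genes with a window, 8 of 17 squamous differentiation genes and 5 of 17 fetal and regenerative markers, and in 0 of 16 Wnt and 0 of 14 ERK output genes. It was in 5 of 18 interleukin-1 and TNF family genes, of which 2 were higher, 1 was lower and 2 were not called. Iron handling genes held it in 4 of 13, with 1 higher and 0 lower. NRF2 and glutathione genes held it in 4 of 19, with 0 called. Of the 6 protease genes that hold it 3 were higher, 1 was lower and 2 were not called. Of the 8 squamous genes that hold it 0 were higher, 1 was lower, 5 were not called and 2 were not tested. Of the 5 fetal markers that hold it 1 was higher, 2 were lower and 2 were not called. The TCF motif CTTTGAA or CTTTGAT, searched on both strands like the first, was in 8.65% of all windows, 7.56% of tested genes with a window, 8.13% of genes called higher and 7.21% of genes called lower. These matches describe letters in a window and not binding.

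Wnt target and feedback genes that were called were nearly all higher in Fosl1Tg adenomas. Of 23 tested, 9 were higher and 1 lower, beside 14.5% and 4.72% of all tested genes, with a median log2 difference of 0.78. Lgr5, the R-spondin receptor of crypt stem cells, had 90.0, 73.3 and 92.8 CPM in Fosl1Tg adenomas, against 12.2, 1.13 and 1.33 CPM in Braf adenomas and 4.50, 7.32 and 4.85 CPM in controls. The Fosl1Tg libraries exceeded both other groups, and Braf 2 and Braf 3 lay below the controls (4.41 ± 0.62, adjusted p = 0.00249). Lef1, a transcription factor that partners beta-catenin, had 23.4, 30.3 and 20.7 CPM in Fosl1Tg adenomas, against 10.8, 7.57 and 7.66 CPM in Braf adenomas and at most 0.227 CPM in controls (1.41 ± 0.24, adjusted p = 0.0035). Nkd2 and Nkd1, inhibitors of the Wnt transducer Dishevelled, were both higher. Nkd2 had 3.75, 3.85 and 6.12 CPM in Fosl1Tg adenomas, against 0.984, 0.805 and 1.47 CPM in Braf adenomas, and Nkd1 had 543, 904 and 907 CPM in Fosl1Tg adenomas, against 457, 183 and 346 CPM in Braf adenomas. Nkd1 passed narrowly (adjusted p = 0.0498), did not pass after TMM rescaling (adjusted p = 0.0756) and was lost without Braf 2, Braf 3, Fosl1Tg 2 or Fosl1Tg 3.

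Further members called higher were the secreted modulator Dkk3, the membrane inhibitor Apcdd1 and the ligand gene Wnt6. Dkk3 had 67.8, 180.4 and 119 CPM in Fosl1Tg adenomas, against 31.6, 2.09 and 5.31 CPM in Braf adenomas. Apcdd1 had 13.1, 107 and 61.7 CPM in Fosl1Tg adenomas, against 14.3, 3.22 and 1.40 CPM in Braf adenomas, and Wnt6 had 14.3, 65.9 and 76.3 CPM in Fosl1Tg adenomas, against 15.9, 4.67 and 4.79 CPM in Braf adenomas. For Apcdd1 and Wnt6, Fosl1Tg 1 fell within the Braf range, and their calls were lost without Braf 2, Braf 3, Fosl1Tg 2 or Fosl1Tg 3. Ascl2, a stem cell transcription factor and Wnt target, went the other way at 38.9, 37.1 and 48.7 CPM in Fosl1Tg adenomas, against 50.5, 80.0 and 72.1 CPM in Braf adenomas (-0.67 ± 0.21, adjusted p = 0.0479), and it kept its call only without Braf 1. Axin2, a feedback target in widespread use as a Wnt readout, had 123, 239 and 300.04 CPM in Fosl1Tg adenomas, against 224, 395 and 236 CPM in Braf adenomas, with overlapping groups and an adjusted p of 0.409. Under the fit with Y-linked reads 4 members were higher and none lower. Of the 18 crypt stem cell markers tested, 3 were higher and 1 lower, Lgr5 and Ascl2 among them, and 5 were higher without Braf 1.

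Called ERK pathway feedback and output genes were lower but for 1, although both adenoma groups stood above controls for most of the members named here. Of 22 tested, Spred3 was higher and 6 lower, with a median of -0.32. Epha2, an Eph receptor induced by ERK signalling, had 90.9, 129 and 111 CPM in Fosl1Tg adenomas, against 282, 307 and 251 CPM in Braf adenomas and 113, 113 and 90.1 CPM in controls, so the Fosl1Tg libraries were at the control level (-1.34 ± 0.16, adjusted p = 0.000892). Epha4, of the same receptor family, had 7.23, 9.39 and 5.79 CPM in Fosl1Tg adenomas, against 30.4, 42.0 and 25.5 CPM in Braf adenomas (-1.98 ± 0.31, adjusted p = 0.00243). Dusp4, a nuclear phosphatase that inactivates ERK, had 26.6, 32.4 and 35.5 CPM in Fosl1Tg adenomas, against 79.8, 94.7 and 44.7 CPM in Braf adenomas, and Spred2, an inhibitor of RAS to RAF signalling, had 37.5, 47.6 and 38.7 CPM in Fosl1Tg adenomas, against 63.2, 75.5 and 61.5 CPM in Braf adenomas. The groups did not overlap for any of these 4, and 9 of the 22 members had all Fosl1Tg libraries below all Braf libraries, beside 10.5% of all tested genes.

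Spry1 and Myc were also lower, with calls that were lost in several leave-outs. Spry1, a Sprouty feedback inhibitor, had 20.4, 32.3 and 29.5 CPM in Fosl1Tg adenomas, against 40.5, 43.8 and 56.5 CPM in Braf adenomas, and the transcription factor gene Myc had 91.5, 107 and 179 CPM in Fosl1Tg adenomas, against 227, 235 and 246 CPM in Braf adenomas. Spry1 lost its call without Braf 2, Braf 3, Fosl1Tg 1 or Fosl1Tg 3, and Myc kept its call only without Fosl1Tg 3. Spred3 went against the list at 12.3, 17.8 and 25.1 CPM in Fosl1Tg adenomas, against 11.7, 1.53 and 3.98 CPM in Braf adenomas, with an adjusted p of 0.0334 by limma and 0.109 by edgeR, and it was lost without Braf 2, Braf 3, Fosl1Tg 2 or Fosl1Tg 3. Dusp6, the cytoplasmic ERK phosphatase, had 85.6, 91.0 and 116 CPM in Fosl1Tg adenomas, against 141, 138 and 127 CPM in Braf adenomas, with an adjusted p of 0.0722 by limma and 0.0394 by edgeR. The ETS factor gene Etv4 overlapped at 90.7, 99.5 and 144 CPM in Fosl1Tg adenomas, against 125, 96.4 and 155 CPM in Braf adenomas (adjusted p = 0.75), with 2.36, 5.14 and 7.65 CPM in controls. Y-linked reads in the fit left 2 members lower and none higher.

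Receptors and ligands of the EGF family divided. Of 13 tested, 3 were higher and 4 lower. Egfr, the EGF receptor, had 43.1, 42.4 and 36.9 CPM in Fosl1Tg adenomas, against 86.3, 94.1 and 90.8 CPM in Braf adenomas, with no overlap (-1.13 ± 0.15, adjusted p = 0.00126). Erbb2, Erbb3 and the ligand gene Btc were lower too. The ligand gene Nrg1 was higher at 15.8, 11.6 and 18.5 CPM in Fosl1Tg adenomas, against 3.65, 0.161 and 3.39 CPM in Braf adenomas, with an adjusted p of 0.00593 by limma and 0.0649 by edgeR. Ereg, another ligand gene, had 35.1, 18.9 and 33.3 CPM in Fosl1Tg adenomas, against 4.08, 0.0805 and 11.9 CPM in Braf adenomas, and Lrig3 was higher as well. The number of lower members fell from 4 to 1 without Fosl1Tg 1 or Fosl1Tg 3 and to 2 without Braf 1, Braf 2 or Fosl1Tg 2, and that of higher members to 1 without Fosl1Tg 3, by edgeR and with the term for Y-linked reads, with which 1 was lower.

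Eph receptors and ephrins also moved both ways, with 3 of 15 tested higher and 4 lower. Efnb2, a transmembrane ephrin, had 34.0, 42.5 and 40.5 CPM in Fosl1Tg adenomas, against 95.1, 105 and 107 CPM in Braf adenomas and 41.7, 50.1 and 52.3 CPM in controls. The Fosl1Tg libraries were below all Braf libraries and near the controls (-1.37 ± 0.15, adjusted p = 0.000482). The members called lower besides Efnb2 were Epha2, Epha4 and Efnb1, and those called higher were Epha7, Ephb4 and Efna2. Without Braf 2 or Fosl1Tg 2 only 1 member was higher, and after TMM rescaling 7 were lower.

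Fetal and regenerative markers that were called were mainly lower in Fosl1Tg adenomas, and their summed level stayed far above controls in both groups. Of 24 tested, 2 were higher and 7 lower, with a median of -0.71. The list summed to 8808 to 11810.0 CPM in Fosl1Tg adenomas, 16099 to 22089 CPM in Braf adenomas and 520.4 to 614 CPM in controls. Il1rn, the interleukin-1 receptor antagonist, had 123, 121 and 67.7 CPM in Fosl1Tg adenomas, against 399.8, 549 and 463 CPM in Braf adenomas and at most 1.56 CPM in controls (-2.21 ± 0.27, adjusted p = 0.001). Emp1, an epithelial membrane protein, had 116, 199 and 167 CPM in Fosl1Tg adenomas, against 405, 401 and 605 CPM in Braf adenomas, and the Fosl1Tg libraries were near the controls at 165, 172 and 136 CPM. Msln, mesothelin, had 27.8, 62.6 and 57.7 CPM in Fosl1Tg adenomas, against 134, 280.2 and 340.2 CPM in Braf adenomas, and Anxa3, an annexin, had 115, 132 and 130.1 CPM in Fosl1Tg adenomas, against 254, 249 and 356 CPM in Braf adenomas. These 4 kept their calls in every leave-out.

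Ly6a and Clu, markers of revival epithelium after injury, were lower with no overlap, as were 10.5% of all tested genes. Ly6a, which encodes SCA-1, had 189, 69.3 and 229 CPM in Fosl1Tg adenomas, against 467, 888 and 592 CPM in Braf adenomas, and Clu, clusterin, had 3552, 5630.0 and 3212 CPM in Fosl1Tg adenomas, against 11439, 9165 and 10352 CPM in Braf adenomas and 4.86, 11.6 and 5.00 CPM in controls. The call of Ly6a was lost without Braf 2 and that of Clu without Fosl1Tg 3. Ccn1 and Gja1 went against the list, with Ccn1 at 40.8, 35.4 and 43.7 CPM in Fosl1Tg adenomas, against 16.2, 14.3 and 23.1 CPM in Braf adenomas, and both were lost without Fosl1Tg 3 and by edgeR, with adjusted p of 0.0588 and 0.0672. Both genes are also expressed in mesenchyme, whose markers were higher in Fosl1Tg adenomas, and the part of mesenchymal cells in them was not tested. After TMM rescaling 10 members were lower, and with the term for Y-linked reads 6.

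**Figure D3:**
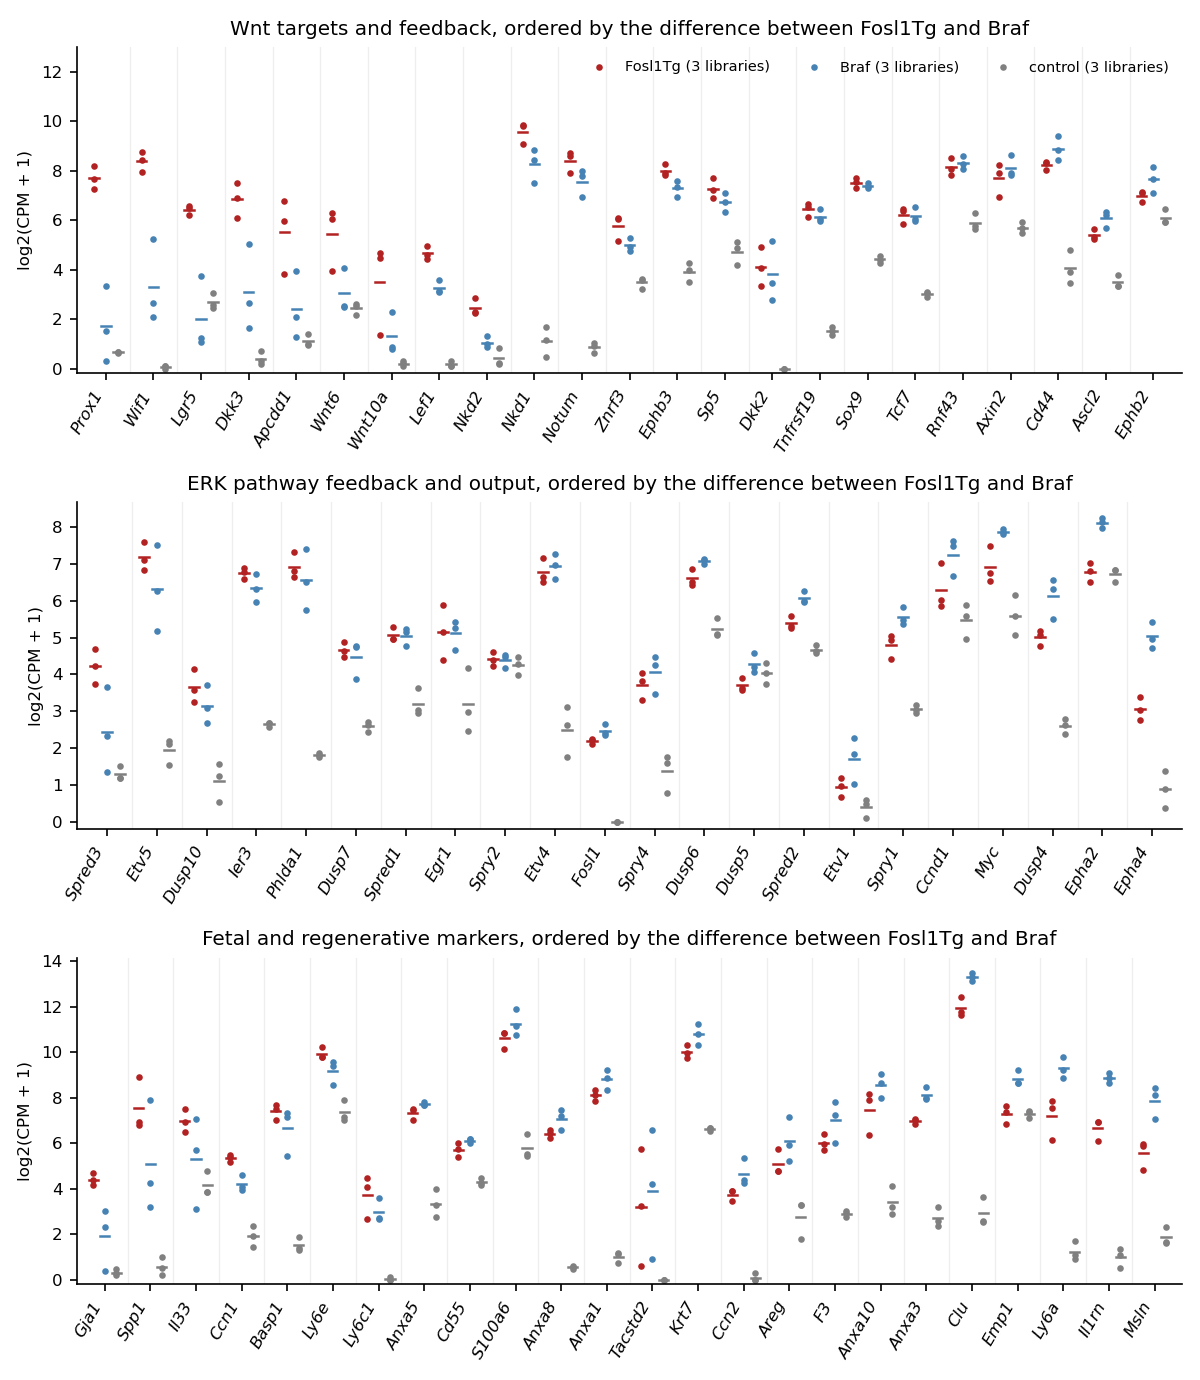
Each point is 1 library's log2(CPM + 1) for the tested Wnt, ERK output and fetal marker genes, with Fosl1Tg left of Braf and control on the right of each gene and bars at the group means; genes run from the largest to the smallest Fosl1Tg minus Braf difference. Prox1, Wif1 and Lgr5 stand at the left of the Wnt panel, Epha2 and Epha4 at the right of the ERK panel, and Emp1, Ly6a, Il1rn and Msln at the right of the fetal panel, where control points lie below the adenoma points for all but Emp1.

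None of the 18 gastric markers tested was called in either direction by limma or edgeR. An unadjusted p below 0.05 by limma was found for 4 of the 18, beside 5168 of all 15173 tested genes. All Fosl1Tg libraries lay below all Braf libraries for 4 of the 18 and above for 2, beside 10.5% and 27.9% of all tested genes. Tff2, a trefoil peptide of gastric mucous cells, had 138, 103 and 46.9 CPM in Fosl1Tg adenomas, against 1319, 298 and 2946 CPM in Braf adenomas, with no overlap, a wide spread among Braf libraries and an adjusted p of 0.113. Nkx6-3, the gastric antrum factor named above, is not on this list. It was called lower by limma (adjusted p = 0.0225), with the leave-out losses given above.

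Among transcription factors of intestinal identity 1 of 22 tested was higher and 5 were lower, beside 14.5% and 4.72% of all tested genes. Isx, an intestine-specific homeobox factor, had 37.3, 31.8 and 25.2 CPM in Fosl1Tg adenomas, against 88.3, 93.2 and 71.3 CPM in Braf adenomas and 102, 72.9 and 147 CPM in controls (-1.40 ± 0.24, adjusted p = 0.00401). Hnf4a, a nuclear receptor of enterocyte differentiation, had 299, 286 and 256 CPM in Fosl1Tg adenomas, against 531, 831 and 375 CPM in Braf adenomas, and Cdx2, the caudal homeobox factor that specifies intestine, had 103, 123 and 116 CPM in Fosl1Tg adenomas, against 139, 207 and 153 CPM in Braf adenomas. Cdx1 was lower as well, and Foxa3 was higher at 91.8, 81.1 and 96.5 CPM in Fosl1Tg adenomas, against 47.4, 32.2 and 60.1 CPM in Braf adenomas. The count of lower members fell to 3 without Braf 2 or without any 1 Fosl1Tg library, and Hnf4a lost its call without Fosl1Tg 3 and Cdx2 without any library but Braf 1. With the term for Y-linked reads 1 member was lower and none higher.

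Brush border hydrolases, the digestive enzymes of mature enterocytes, included 8 of 19 tested that were higher and none that were lower. Enpep, glutamyl aminopeptidase, had 7.36, 31.7 and 44.8 CPM in Fosl1Tg adenomas, against 0.843, 0.322 and 0.147 CPM in Braf adenomas, and Anpep, aminopeptidase N, had 76.3, 378 and 293 CPM in Fosl1Tg adenomas, against 19.3, 7.09 and 4.42 CPM in Braf adenomas. Controls were far higher, at 1076, 878 and 1035 CPM for Enpep and 6861, 5372 and 6292 CPM for Anpep. Log2 differences were 4.04 ± 0.55, adjusted p = 0.00263, for Enpep and 4.41 ± 0.66, adjusted p = 0.00423, for Anpep. Dpp4 and Lct, lactase, were also higher. Alpi, intestinal alkaline phosphatase and the most abundant member in Braf adenomas, had 1203, 218 and 75.2 CPM in Fosl1Tg adenomas, against 1766, 2367 and 620.2 CPM in Braf adenomas, so that Fosl1Tg 1 lay within the Braf range (adjusted p = 0.146). The list summed to 1311 to 2187 CPM in Fosl1Tg adenomas, 811 to 3039 CPM in Braf adenomas and 22287 to 28566 CPM in controls, and the adenoma groups overlapped. With the term for Y-linked reads 4 were higher. Microvillus structure genes went the other way, with 0 of 17 tested higher and 4 lower, Baiap2l1 at 67.0, 65.6 and 44.4 CPM in Fosl1Tg adenomas, against 117, 141 and 98.0 CPM in Braf adenomas and Ezr, ezrin, among them. That count was 1 without Braf 2, Fosl1Tg 2 or Fosl1Tg 3, 2 without Braf 1 and 8 without Braf 3.

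Genes of fat absorption were higher for 4 of 16 tested and lower for none. Fabp2, the intestinal fatty acid binding protein, had 257, 398 and 392 CPM in Fosl1Tg adenomas, against 138, 72.2 and 42.6 CPM in Braf adenomas, and Dgat1, which completes triglyceride synthesis, had 253, 225 and 145 CPM in Fosl1Tg adenomas, against 99.7, 76.4 and 70.4 CPM in Braf adenomas. Controls were again above both groups, at 6434, 7079 and 4598 CPM for Fabp2 and 1429.7, 1645 and 1086 CPM for Dgat1.

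Paneth cell genes were higher in Fosl1Tg adenomas for 11 of 16 tested and lower for none, with a median of 2.41. Itln1, the lectin intelectin, had 247, 545 and 648 CPM in Fosl1Tg adenomas, against 42.2, 27.1 and 23.4 CPM in Braf adenomas and 131, 249.9 and 319.8 CPM in controls (3.84 ± 0.44, adjusted p = 0.00128). Pla2g2a, a secreted antibacterial phospholipase, had 857, 829.5 and 1164 CPM in Fosl1Tg adenomas, against 229, 126 and 161 CPM in Braf adenomas, and both groups were above controls at 4.50, 7.32 and 16.5 CPM. Mptx2, a mucosal pentraxin, had 8.65, 17.4 and 38.2 CPM in Fosl1Tg adenomas and no read in any Braf library, where 3 reads would be 0.224 CPM on average. Lyz1, lysozyme of Paneth cells, had 359.8, 643 and 2115 CPM in Fosl1Tg adenomas, against 83.4, 54.2 and 174 CPM in Braf adenomas, with Fosl1Tg 3 the highest, and lost its call without Braf 1, Braf 2 or Fosl1Tg 2. The list summed to 2425 to 5708 CPM in Fosl1Tg adenomas, 749 to 1018 CPM in Braf adenomas and 678 to 1424 CPM in controls. Without Braf 2 the count fell to 7, and with the term for Y-linked reads to 6. Lyz1 and the defensins Defa17 and Defa24, which were also higher, have near-identical copies, so the split of their reads is uncertain.

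Of the other secretory lineages, goblet cell genes were higher for 7 of 20 tested and lower for 1. Ang4, an antimicrobial ribonuclease that is also on the Paneth list, and Klk1, a tissue kallikrein at 80.5, 87.3 and 117 CPM in Fosl1Tg adenomas, against 33.9, 6.93 and 8.99 CPM in Braf adenomas, were among those higher, and Fer1l6 was lower at 3.55, 7.91 and 6.33 CPM in Fosl1Tg adenomas, against 11.2, 16.2 and 14.9 CPM in Braf adenomas. Muc2, the gel-forming mucin, had 651, 828 and 1251 CPM in Fosl1Tg adenomas, against 663, 87.7 and 332 CPM in Braf adenomas, so that Braf 1 overlapped the Fosl1Tg libraries (adjusted p = 0.109). The count of higher goblet genes fell to 3 without Fosl1Tg 3 and to 2 with the term for Y-linked reads. Enteroendocrine genes were at the shares of all tested genes, with 3 of 21 higher and 1 lower. Among them was Chga, chromogranin A of secretory granules, at 25.2, 16.1 and 19.6 CPM in Fosl1Tg adenomas, against 4.57, 2.90 and 1.18 CPM in Braf adenomas and 77.4, 92.6 and 58.2 CPM in controls (2.54 ± 0.33, adjusted p = 0.00122). By edgeR 5 were higher, and with the term for Y-linked reads 1 was. Tuft cell genes were higher for 4 of 15, with Sh2d6 at 24.6, 26.9 and 12.4 CPM in Fosl1Tg adenomas, against 4.92, 1.29 and 3.76 CPM in Braf adenomas, and that count was 2 without Braf 2, by edgeR and with the term for Y-linked reads.

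Acute phase and secreted inflammatory proteins were higher for 10 of 14 tested and lower for none, with a median of 2.97. Besides Serpina3n, Lrg1 and Lcn2 these included Wfdc18, a whey acidic protein, at 1480.3, 939 and 1874 CPM in Fosl1Tg adenomas, against 138, 42.3 and 172 CPM in Braf adenomas (3.76 ± 0.50, adjusted p = 0.00238), and the complement component C3 at 73.5, 42.7 and 50.3 CPM in Fosl1Tg adenomas, against 22.3, 12.2 and 7.66 CPM in Braf adenomas. The list summed to 3104 to 5384 CPM in Fosl1Tg adenomas, 857 to 1601 CPM in Braf adenomas and 74.2 to 104 CPM in controls, with no overlap between the groups. The fit with Y-linked reads left 6 higher.

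Among cytokine genes Il6 and Il11 were higher, and the antagonist genes Il1rn and Tnfrsf11b were lower. Il6 had 7.94, 2.66 and 6.33 CPM in Fosl1Tg adenomas, against 0, 0 and 0.295 CPM in Braf adenomas and no read in controls, and Il11 had 82.9, 35.0 and 66.4 CPM in Fosl1Tg adenomas, against 6.96, 0.483 and 8.84 CPM in Braf adenomas. Both cytokines signal through the gp130 receptor subunit. In both, all Fosl1Tg libraries lay above all Braf libraries, as for 27.9% of all tested genes (adjusted p = 0.000926 for Il6 and 0.00631 for Il11). Il1b and the receptor gene Il1r1 were higher too. Tnfrsf11b, the decoy receptor osteoprotegerin, was lower with Il1rn at 123, 108 and 117 CPM in Fosl1Tg adenomas, against 262, 241 and 319.7 CPM in Braf adenomas (-1.23 ± 0.15, adjusted p = 0.001). In all, 4 of 18 interleukin-1 and TNF family members were higher and 2 lower, and those counts were 4 or 5 and 2 in every leave-out.

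Chemokines were higher for 8 of 20 tested and lower for 2. Ccl2, which attracts monocytes, had 25.8, 8.28 and 16.4 CPM in Fosl1Tg adenomas, against 1.34, 0.0805 and 0.368 CPM in Braf adenomas (3.43 ± 0.39, adjusted p = 0.000722), and Ccl7 and Cxcl12 were higher as well. Cxcl16, a membrane-bound chemokine of epithelium, had 64.3, 66.1 and 58.6 CPM in Fosl1Tg adenomas, against 134, 133 and 142 CPM in Braf adenomas, and Ccl20 was lower too, with a call that was kept only without Fosl1Tg 1. The count of higher members was 5 without Braf 2, Fosl1Tg 1 or Fosl1Tg 3. Il6, Il11, Ccl2 and Cxcl12 are also products of fibroblasts, whose markers summed to several times more in Fosl1Tg adenomas (values below), and the part of these cells was not tested.

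Proteases of the plasminogen system and the matrix were higher for 14 of 24 tested and lower for 2, with a median of 1.87. Adam8, a membrane-anchored metalloprotease, had 73.0, 73.7 and 127 CPM in Fosl1Tg adenomas, against 18.3, 8.46 and 11.6 CPM in Braf adenomas (2.76 ± 0.30, adjusted p = 0.000556). Mmp14, a membrane-bound collagenase, had 377, 326 and 320.5 CPM in Fosl1Tg adenomas, against 151, 118 and 163 CPM in Braf adenomas (1.25 ± 0.17, adjusted p = 0.00128), and the lysosomal cathepsin gene Ctsl had 416, 527 and 405 CPM in Fosl1Tg adenomas, against 144, 105 and 147 CPM in Braf adenomas. In these 3 genes all Fosl1Tg libraries lay above all Braf libraries, as for 27.9% of all tested genes, and controls were lower than both. Serpine2, an inhibitor of plasminogen activators, had 86.7, 36.7 and 122 CPM in Fosl1Tg adenomas, against 6.46, 0.242 and 4.94 CPM in Braf adenomas. Several members are also products of stromal cells and macrophages: 15 of 16 fibroblast markers were higher (summed levels below) and 5 of 16 macrophage markers, and the part of these cells in the protease levels was not tested.

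Mmp12 and Mmp13, whose AP-1 motifs are printed above, and Mmp3, which also holds one, were higher. Mmp12, macrophage elastase, had 21.2, 15.8 and 38.9 CPM in Fosl1Tg adenomas, against 7.17, 1.29 and 5.38 CPM in Braf adenomas, and Mmp13, collagenase, had 90.1, 63.6 and 119 CPM in Fosl1Tg adenomas, against 17.3, 0.644 and 16.1 CPM in Braf adenomas. Mmp12 kept its call in every leave-out, while Mmp13 lost it without any 1 Fosl1Tg library and by edgeR (adjusted p = 0.0509). Plaur, the urokinase receptor and a known AP-1 target, went the other way at 91.4, 119.9 and 66.0 CPM in Fosl1Tg adenomas, against 157, 143 and 282 CPM in Braf adenomas (-1.03 ± 0.29, adjusted p = 0.0317), and Mmp15 was lower as well. Plaur lost its call without Braf 3, Fosl1Tg 1 or Fosl1Tg 3. The urokinase gene Plau was higher at 41.5, 41.8 and 45.4 CPM in Fosl1Tg adenomas, against 15.038, 2.90 and 20.6 CPM in Braf adenomas by limma (adjusted p = 0.0346) and not by edgeR (adjusted p = 0.13). No member was lower without Fosl1Tg 1, Fosl1Tg 3 or Braf 3. The count of higher members fell to 9 without Fosl1Tg 3, to 8 by edgeR and to 6 with the term for Y-linked reads.

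Markers of mesenchyme and vessels that were called were all higher in Fosl1Tg adenomas. Of fibroblast markers 15 of 16 tested were higher, of smooth muscle and myofibroblast markers 9 of 11, of endothelial markers 14 of 17 and of collagens 11 of 17, and none was lower, while 6 collagens were not called. The fibroblast list summed to 831 to 1543 CPM in Fosl1Tg adenomas, 37.0 to 221 CPM in Braf adenomas and 167 to 328 CPM in controls. The endothelial list summed to 465 to 710.4 CPM in Fosl1Tg adenomas, 75.9 to 222 CPM in Braf adenomas and 8.51 to 24.4 CPM in controls, and the smooth muscle list to 627 to 831 CPM in Fosl1Tg adenomas, 153 to 331 CPM in Braf adenomas and 194 to 209 CPM in controls. In each list the lowest Fosl1Tg library exceeded the highest Braf library. In bulk tissue fewer cells of a type and less RNA per cell cannot be told apart.

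Fbln1, fibulin of the extracellular matrix, had 120.3, 124 and 115 CPM in Fosl1Tg adenomas, against 17.4, 12.3 and 7.66 CPM in Braf adenomas (3.23 ± 0.29, adjusted p = 0.000322) and 239, 303 and 154 CPM in controls. Postn, periostin, had 34.0, 26.6 and 73.4 CPM in Fosl1Tg adenomas, against 2.67, 0.805 and 3.54 CPM in Braf adenomas. Cdh5, VE-cadherin of endothelial junctions, had 37.8, 56.0 and 40.4 CPM in Fosl1Tg adenomas, against 8.57, 1.93 and 4.50 CPM in Braf adenomas (3.07 ± 0.39, adjusted p = 0.00112), and Emcn, endomucin, had 13.1, 13.1 and 12.7 CPM in Fosl1Tg adenomas, against 2.81, 0.564 and 1.62 CPM in Braf adenomas. Controls were near 0 for Cdh5 and Emcn. Col15a1, a basement membrane zone collagen, had 27.6, 19.3 and 48.4 CPM in Fosl1Tg adenomas, against 4.08, 0.483 and 3.17 CPM in Braf adenomas, and Col7a1, the anchoring fibril collagen, had 81.1, 64.1 and 238 CPM in Fosl1Tg adenomas, against 10.3, 2.58 and 9.80 CPM in Braf adenomas. Fibroblast counts fell to 8 without Fosl1Tg 3, and by edgeR smooth muscle counts to 2 and endothelial counts to 8. With the term for Y-linked reads the counts were 6 for fibroblasts, 4 for smooth muscle, 9 for endothelium and 5 for collagens.

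**Figure D4:**
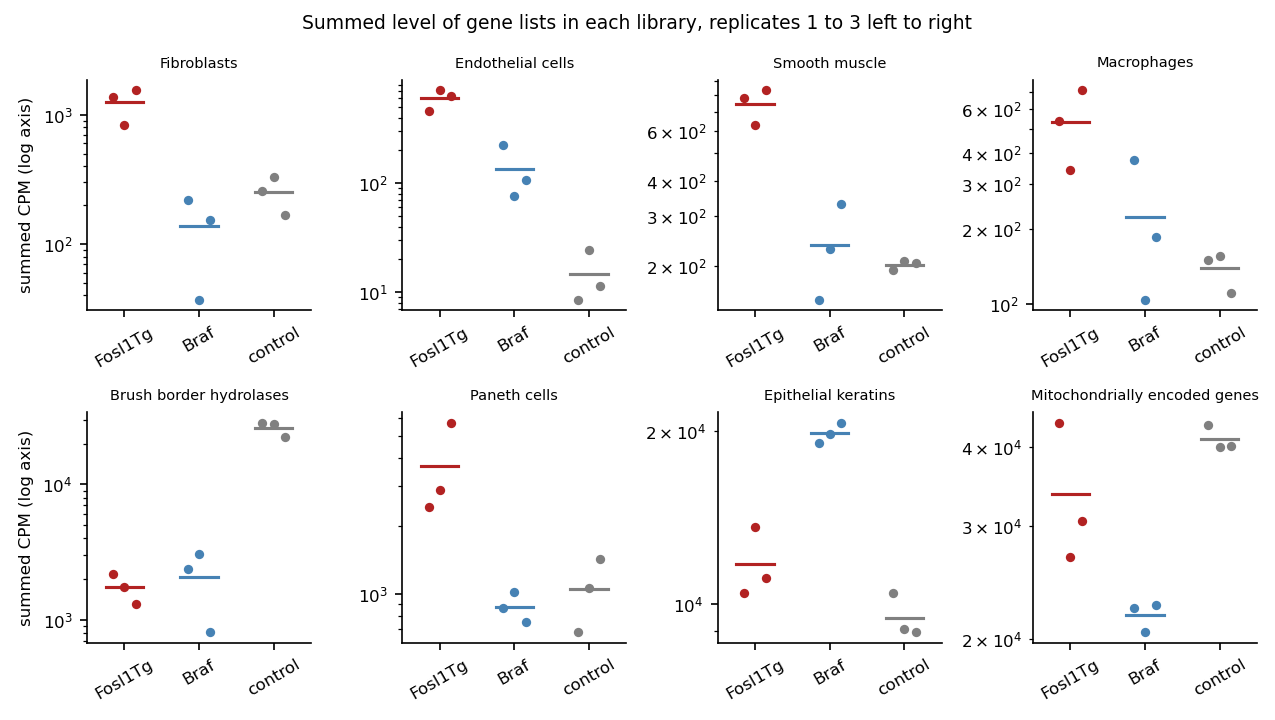
Summed CPM of 8 gene lists in each library on log axes, with Fosl1Tg, Braf and control from left to right, replicates 1 to 3 in order within each group and bars at the group means. Fibroblast, endothelial and smooth muscle sums of all 3 Fosl1Tg libraries lie above all 3 Braf libraries, epithelial keratin sums lie below, and macrophage and brush border sums overlap.

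Genes of epithelial to mesenchymal transition moved in the same direction, with 6 of 16 tested higher and none lower. Cdh2, N-cadherin, had 7.56, 4.96 and 12.0 CPM in Fosl1Tg adenomas, against 0.0703, 0 and 0.368 CPM in Braf adenomas, and Vim, vimentin, had 135, 124 and 422 CPM in Fosl1Tg adenomas, against 23.8, 4.75 and 15.3 CPM in Braf adenomas, with Zeb1 and Snai1, transcriptional repressors of Cdh1, higher as well. Cdh1, E-cadherin, was not called at 786, 684 and 776 CPM in Fosl1Tg adenomas, against 855, 1148 and 915 CPM in Braf adenomas (adjusted p = 0.127), and was called lower after TMM rescaling (adjusted p = 0.0475). Vim, Zeb1 and Cdh2 are expressed by stromal cells, and the part of those cells was not tested. The count of higher members was 3 without Fosl1Tg 3 and with the term for Y-linked reads, and after TMM rescaling 5 were higher and 3 lower.

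Epithelial keratins went the opposite way, with 1 of 14 tested higher and 5 lower. Krt19 had 2102, 3075 and 2029 CPM in Fosl1Tg adenomas, against 4551, 5008 and 5098 CPM in Braf adenomas (-1.05 ± 0.18, adjusted p = 0.00358), Krt18 had 1993, 1827 and 2277 CPM in Fosl1Tg adenomas, against 3219, 3584 and 3335 CPM in Braf adenomas and Krt8 had 4615, 6265 and 5048 CPM in Fosl1Tg adenomas, against 8392, 9001 and 8698 CPM in Braf adenomas. These intermediate filament proteins of simple epithelium separated the groups completely, as did 10.5% of all tested genes with Fosl1Tg below. Controls were at the Fosl1Tg level for Krt8 and Krt19 and below it for Krt18. Krt17, a keratin of basal and wounded epithelium, was higher at 4.91, 8.14 and 7.27 CPM in Fosl1Tg adenomas, against 1.97, 0 and 0.295 CPM in Braf adenomas by limma (adjusted p = 0.00274) and not by edgeR (adjusted p = 0.0951). The count of lower members was 3 without Braf 3 or Fosl1Tg 1. The differences of -0.72 to -1.05 on the log2 scale stand beside an Epcam level that overlapped between the groups. Vil1 and Cdh1, by contrast, lay lower in every Fosl1Tg library than in any Braf library. The part of epithelial content was not tested.

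Integrins and laminins divided by subunit. Of 20 tested, 4 were higher and 4 lower. Itga2, a collagen receptor subunit, had 53.5, 59.2 and 44.8 CPM in Fosl1Tg adenomas, against 143, 143 and 121 CPM in Braf adenomas (-1.36 ± 0.21, adjusted p = 0.00242), and Itgb4, the hemidesmosome subunit that binds laminin, had 342, 363 and 341 CPM in Fosl1Tg adenomas, against 686, 1240.2 and 607 CPM in Braf adenomas (-1.20 ± 0.24, adjusted p = 0.00676). The hemidesmosome partner Itga6 was lower too. Itga5, the fibronectin receptor subunit, was higher at 74.3, 69.8 and 74.8 CPM in Fosl1Tg adenomas, against 29.9, 6.20 and 27.9 CPM in Braf adenomas, with Itgb3, Lama1 and Lamb1. None of these 4 was called without Fosl1Tg 3, where 2 members were lower, and by edgeR 1 member was higher.

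Immune cell genes gave fewer calls. Macrophage markers were higher for 5 of 16 tested and lower for none, and the list summed to 342 to 709 CPM in Fosl1Tg adenomas, 104 to 376 CPM in Braf adenomas and 111 to 156 CPM in controls, with overlap. That count was 12 without Braf 1, 3 without Braf 3, 2 without Braf 2, Fosl1Tg 1 or Fosl1Tg 3, 1 by edgeR and 0 with the term for Y-linked reads. Of MHC class II genes 0 of 9 were called by limma or edgeR (0 at an unadjusted p below 0.05 by limma), and of B and plasma cell markers 0 of 10 (0 at an unadjusted p below 0.05 by limma). Of T cell markers 2 of 19 were higher, and none was without Braf 2, Braf 3 or Fosl1Tg 3. Of 6 mast cell genes tested 2 were lower, the proteases Mcpt4 at 2.26, 4.29 and 2.42 CPM in Fosl1Tg adenomas, against 9.84, 8.54 and 27.3 CPM in Braf adenomas and Mcpt2, and 2 were higher, Kit and Gata2. The protease gene Mcpt1 was not called at 21.1, 18.4 and 18.6 CPM in Fosl1Tg adenomas, against 67.0, 27.1 and 234 CPM in Braf adenomas (adjusted p = 0.0694). Of the mast cell genes 1 was lower without Fosl1Tg 2 or Fosl1Tg 3, and 1 was higher without Braf 2, Braf 3, Fosl1Tg 2 or Fosl1Tg 3. Interferon response genes were higher for 4 of 28 tested, a share near the 14.5% of all genes, and lower for 1, and none was higher without Braf 2, Braf 3, Fosl1Tg 1 or Fosl1Tg 3.

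Notch and TGF-beta family genes were higher in part. Of 15 Notch pathway genes 5 were higher and 1 lower. Hey1, a Notch target repressor, had 25.0, 15.6 and 12.5 CPM in Fosl1Tg adenomas, against 4.15, 1.29 and 2.14 CPM in Braf adenomas (2.43 ± 0.34, adjusted p = 0.00147), and Dll4, a Notch ligand gene, had 28.4, 20.8 and 39.8 CPM in Fosl1Tg adenomas, against 9.98, 7.73 and 13.9 CPM in Braf adenomas, whereas the ligand gene Jag2 had 22.7, 48.4 and 43.7 CPM in Fosl1Tg adenomas, against 75.0, 124 and 79.9 CPM in Braf adenomas. Both Hey1 and Dll4 are also endothelial genes, and endothelial markers were higher in the same libraries; the part of endothelial cells was not tested. The count of higher members was 3 without Braf 2, Braf 3 or Fosl1Tg 3. Of 23 TGF-beta and BMP genes 6 were higher and 2 lower. Tgfbi, a TGF-beta induced matrix protein, had 134, 89.7 and 129 CPM in Fosl1Tg adenomas, against 35.8, 12.2 and 15.9 CPM in Braf adenomas and 258, 179.9 and 258 CPM in controls. Inhbb, an activin subunit, had 23.6, 27.5 and 36.3 CPM in Fosl1Tg adenomas, against 6.96, 1.21 and 0.737 CPM in Braf adenomas, and the ligand gene Bmp7 had 63.1, 80.7 and 103 CPM in Fosl1Tg adenomas, against 19.2, 1.21 and 4.79 CPM in Braf adenomas. All 3 had every Fosl1Tg library above every Braf library, as did 27.9% of all tested genes. The lower members, Tgfbr2 and Smad3, kept their calls only without Braf 3.

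Stress responses differed in direction. NRF2 and glutathione genes were lower for 4 of 23 tested and higher for none. Besides Slc7a11 these were Gsta4, a glutathione transferase at 144, 150.4 and 83.6 CPM in Fosl1Tg adenomas, against 527, 416 and 779 CPM in Braf adenomas (-2.18 ± 0.31, adjusted p = 0.00211), Gsta3 and Tkt. The count was 2 without any 1 Fosl1Tg library and 7 after TMM rescaling. Unfolded protein response and secretory genes were higher for 9 of 20 tested and lower for none, with a median of 0.49. Creb3l2, a membrane-bound transcription factor of secretory cells, had 86.6, 84.8 and 82.0 CPM in Fosl1Tg adenomas, against 35.6, 14.7 and 27.7 CPM in Braf adenomas (1.75 ± 0.27, adjusted p = 0.0024), and Manf, a secreted chaperone-like factor, had 192, 143 and 129.6 CPM in Fosl1Tg adenomas, against 66.8, 48.4 and 97.2 CPM in Braf adenomas. That count was 1 without Fosl1Tg 1, 3 without Fosl1Tg 3, 4 without Braf 2 and 6 after TMM rescaling.

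Growth arrest genes were lower for 4 of 22 tested and higher for 1. Phlda3 and Ccng1, p53 targets, had 75.7, 125 and 118 CPM in Fosl1Tg adenomas, against 198, 186 and 229.8 CPM in Braf adenomas for the first, and 63.7, 67.5 and 89.7 CPM in Fosl1Tg adenomas, against 122, 150.02 and 129 CPM in Braf adenomas for the second. Cdkn2a, which encodes p16 and p19 inhibitors of the cell cycle, had 18.0, 11.5 and 39.2 CPM in Fosl1Tg adenomas, against 81.2, 40.3 and 89.0 CPM in Braf adenomas and at most 0.286 CPM in controls. It was called at an adjusted p of 0.0208 and lost without Braf 1, Braf 3, Fosl1Tg 1 or Fosl1Tg 2. Cdkn1c, p57, went against the list at 14.9, 23.8 and 24.3 CPM in Fosl1Tg adenomas, against 5.48, 0.886 and 8.33 CPM in Braf adenomas. The count of lower members was 6 without Fosl1Tg 3 and 2 without Fosl1Tg 1. Cell cycle and DNA replication genes, by contrast, gave 1 call of 28, Plk1 at 157, 116 and 131 CPM in Fosl1Tg adenomas, against 91.2, 84.6 and 96.7 CPM in Braf adenomas, which did not pass after TMM rescaling (adjusted p = 0.0968).

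Atg9b, of the autophagy list, gave a large difference at high level. Atg9b, a lipid scramblase of autophagosome formation, had 274, 360.1 and 558 CPM in Fosl1Tg adenomas, against 1287, 1415 and 1743 CPM in Braf adenomas, and at most 0.455 CPM in controls (-1.95 ± 0.23, adjusted p = 0.000857). Of the 17 autophagy genes tested, Wipi1 was higher and Atg3 was lower besides it, and 4 were lower without Braf 3.

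Mitochondrially encoded genes were higher for 7 of 11 by limma and lower for none, while their share of reads was also higher in Fosl1Tg adenomas (given above). That count was 4 without Braf 1 or Fosl1Tg 2, 3 without Fosl1Tg 3, 2 without Braf 2 or Fosl1Tg 1, 4 with the term for Y-linked reads, 1 after TMM rescaling and 0 by edgeR.

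Several lists stayed near or below the shares of all tested genes in the limma fit. AP-1 subunits, Fosl1 among them, gave 1 call of 16 tested, Batf, which did not pass after TMM rescaling or by edgeR. Jun had 277, 365 and 344 CPM in Fosl1Tg adenomas, against 192, 179 and 195 CPM in Braf adenomas (adjusted p = 0.114), and Fosl2 had 173, 147 and 154 CPM in Fosl1Tg adenomas, against 112, 134 and 101 CPM in Braf adenomas (adjusted p = 0.0738). Ribosomal protein genes gave 1 lower call of 30, which became 8 after TMM rescaling, where 7.74% of all tested genes were lower, and 7 by edgeR. Cholesterol synthesis gave 1 lower call of 21, which was lost without any 1 Fosl1Tg library and became 2 without Braf 1 or Braf 3. Glycolysis gave 2 higher and 1 lower of 19, with 0 higher without Fosl1Tg 1, 1 without Braf 1, Braf 3 or Fosl1Tg 2, and the lower call kept only without Braf 3. Apoptosis regulators gave 1 lower of 17, a count of 1 only without Braf 2 or Fosl1Tg 1.

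The remaining lists are given by their counts, most of which moved when 1 library was left out. They stand beside 14.5% of all tested genes higher and 4.72% lower. Reg family and antimicrobial genes were higher for 6 of 17 (Reg3a, Reg3b, Lcn2, Ltf, S100a9 and Saa3), and for 3 without any 1 Fosl1Tg library. Prostaglandin genes were higher for 6 and lower for 2 of 16. Their higher count was 3 without Braf 2 or Fosl1Tg 2, 9 without Braf 1 and 2 by edgeR, and their lower count 1 without Braf 3 or Fosl1Tg 2 and 0 without any other 1 library. ATF4 targets were higher for 6 and lower for 2 of 21, with 3 higher by edgeR and 1 lower without Braf 2, Fosl1Tg 1 or Fosl1Tg 2.

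YAP and TEAD targets were higher for 4 and lower for 1 of 18. After TMM rescaling they were 3 and 3, the higher count was 2 without Braf 2 or Fosl1Tg 3, and the lower count was 2 without Braf 2 and 3 without Braf 3. Iron handling genes were higher for 4 of 17 in every leave-out and lower for 1, a count of 0 without Fosl1Tg 2 or Fosl1Tg 3 and of 2 without Braf 3 or Fosl1Tg 1. Nerve and glia markers were higher for 4 and lower for 2 of 8. Of these 2 were higher without Braf 1, Braf 2, Fosl1Tg 2 or Fosl1Tg 3, and 1 was lower without Braf 2 or any 1 Fosl1Tg library.

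Markers of distal small intestine were higher for 3 of 9, of colon and caecum for 1 of 6 and of proximal small intestine for 0 of 10 (2 at an unadjusted p below 0.05 by limma, and 0 called by edgeR). The distal count was 3 or 4 in every leave-out and 1 with the term for Y-linked reads, and the colon call was lost without Braf 2, Braf 3 or Fosl1Tg 3. Hypoxia targets were higher for 3 of 16, beside 14.5% of all tested genes, and for 1 without Fosl1Tg 2. MHC class I genes were higher for 3 of 16, for 7 without Braf 1 and for 1 without Braf 2 or Fosl1Tg 1. DNA methylation and mismatch repair genes were higher for 2 of 12, for 1 without Fosl1Tg 1 or Fosl1Tg 3 and for none without Braf 2, Braf 3 or Fosl1Tg 2. Neutrophil markers were higher for 2 of 7, for 5 without Braf 1 and for 1 without Fosl1Tg 3. None was higher without any other 1 library, after TMM rescaling or by edgeR. All 7 had an unadjusted p below 0.05 by limma, as did 5168 of all 15173 tested genes.

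Fatty acid oxidation genes were higher for 1 and lower for 3 of 20, with 8 lower without Braf 3, 1 without Braf 1 and none without any other 1 library. Claudin and tight junction genes were higher for 1 and lower for 2 of 19, and 3 were higher without Braf 1 and 2 without Braf 3. Squamous differentiation genes were higher for 1 and lower for 3 of 16, with a median of 0.12, and the higher call was kept only without Braf 1 or Braf 3. Xenobiotic metabolism genes were higher for 1 and lower for 1 of 27, with 4 higher without Braf 1 and 2 without Braf 3 or Fosl1Tg 3. Nuclear-encoded respiratory chain genes were lower for 2 of 30, for 3 without Braf 3, for 1 without Fosl1Tg 1 and for none without any other 1 library. Erythroid markers were higher for 1 of 5, for 4 without Braf 1 and for none without Braf 2, Braf 3, Fosl1Tg 1 or Fosl1Tg 2. Pancreatic acinar markers were higher for 1 of 3 and for none without Braf 2, Fosl1Tg 2 or Fosl1Tg 3.

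**Figure D5:**
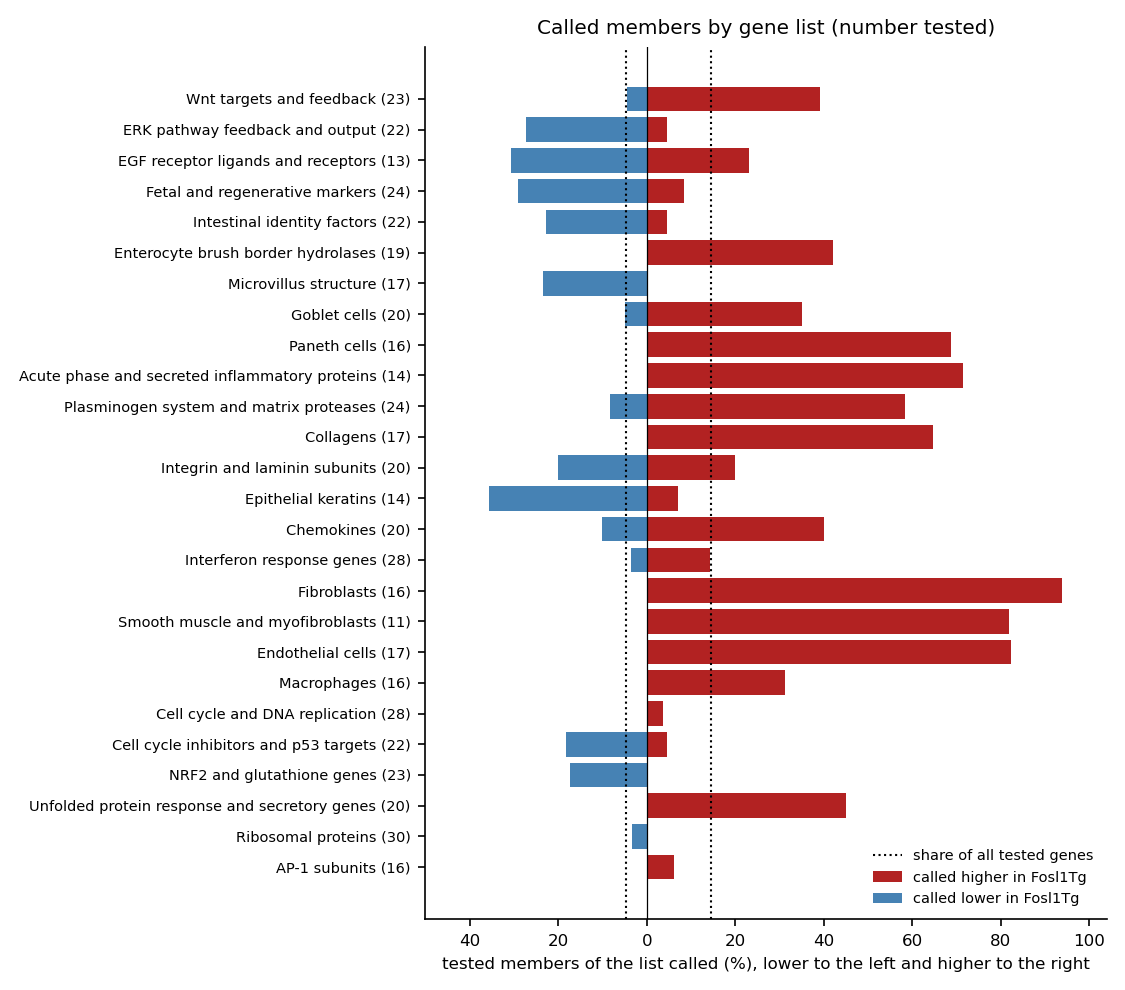
Share of each list's tested members called higher in Fosl1Tg (red, to the right) or lower (blue, to the left), in percent, with the number tested in parentheses; dotted lines mark the same shares of all 15173 tested genes, 14.5% higher and 4.72% lower. Fibroblast, endothelial, smooth muscle, acute phase and Paneth lists reach farthest to the right, and the keratin, EGF family, fetal marker and ERK output lists farthest to the left.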

How the data were processed

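RNA of intestinal epithelium and adenomas was sequenced as paired ends on an Illumina NovaSeq after TruSeq v2 or stranded rRNA-depleted library preparation, per the labels' protocols. The authors' deposited values are CPM per gene, and the submitters' processing notes name fastp, STAR, limma and GRCm38; the gene counter and its use of strand are not given in the sources used here. Multiples of the value of 1 read gave whole reads for 100% of nonzero values within 0.02 reads. Groups were read from the labels, and 12 other per-sample columns were not used.

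Genes with at least 1 CPM in 3 of the 9 libraries were tested on log2(CPM + 1) with limma 3.58.1 in R 4.3.3 (trend and robust moderation, group means of Fosl1Tg, Braf and control in 1 fit), with Benjamini-Hochberg adjustment over all 15173 tested genes. Errors after ± are standard errors of log2 differences, n = 3 libraries a group. P-values rest on the spread between mice within groups, pooled over the Fosl1Tg, Braf and control groups and moderated across genes. A fit of the Fosl1Tg and Braf libraries alone gave 1569 genes higher and 499 lower. In that fit 27 of the 30 named genes kept their call. edgeR 4.0.16 and DESeq2 1.42.0 were run on the recovered reads as alternatives. Both limma and edgeR, but not DESeq2, were also run on simulated counts in which equal numbers of genes were raised and lowered. The data differ from that setting, with 75.5% of limma calls higher, and no result here rests on that run.

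The comparison and the 67 gene lists were chosen with earlier results of these data known. Named genes are the 15 with the largest differences in each direction among called genes of at least 5 CPM in the higher group with no overlap, leaving out predicted gene models and immune receptor segments, then Fosl1, Braf, up to 4 members a list with the smallest adjusted p, and called members that go against their list. Other list members were named after their values were seen. Gene coordinates are from GENCODE for GRCm38. Promoter windows matched 11266 of 15171 tested symbols. A few list members are not reported here.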

Additional observations from a re-analysis of the deposited data

How the results depend on the processing

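The main counts were 2202 genes higher and 716 lower in Fosl1Tg adenomas. Higher genes numbered 1379 with a filter at 5 CPM, 951 with the term for Y-linked reads (chosen after seeing the data) and 1166 by edgeR, and 1291 to 2342 when 1 replicate was left out. Lower genes numbered 1174 after TMM rescaling, 1327 after median-ratio rescaling, 337 with the term for Y-linked reads and 1776 by DESeq2, and 414 to 957 when 1 replicate was left out. The leave-outs held fewer libraries and the filter fewer genes, and the cause of these moves was not tested. The uncalled difference of Braf, 0.06, reversed to -0.10 after TMM rescaling, -0.12 after median-ratio rescaling, -0.078 with the term for Y-linked reads, -0.082 by edgeR and -0.10 by DESeq2, and lay between -0.11 and 0.29 when 1 replicate was left out. Fosl1 stayed lower and uncalled under every alternative that tested it, and the filter at 5 CPM left it out. Of the 30 named genes 30 kept their call under TMM rescaling, 29 by edgeR and 24 with the term for Y-linked reads, and none changed direction. edgeR and limma shared 1137 higher and 674 lower calls. Replicate numbers were not used as pairs in the main fit, and the labels number the mice separately. Deviations of same-numbered libraries correlated at 0.109, 0.019 and 0.143, and those of differently numbered libraries at -0.194 to 0.076. These values do not settle whether the numbers carry a pairing. The fit with the replicate number as a block gave 2184 genes higher and 744 lower. At this depth 3 reads equal 0.206 CPM on average in Fosl1Tg libraries and 0.224 CPM in Braf libraries, and genes near that level carry little precision.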
